A study of Drosophila melanogaster with 9 samples.

Results

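The genes described here were silent in control ovaries of Drosophila melanogaster and present in 4 knockdown libraries. A gene was taken when its abundance was under 0.5 TPM, a length-normalised share of transcripts, in both Ctrl libraries and when it had at least 2 TPM and at least 20 reads in each of the 2 double-GKD libraries and of the 2 Piwi-GKD-labelled libraries. Of 13937 genes measured, 4874 were silent by the first condition, and 23 of these met the second. The members were thus chosen by the TPM and read counts of the Ctrl, double-GKD and Piwi-GKD-labelled libraries. Of the silent genes, 4679 passed in no library of the 4, 101 passed in 1, 47 in 2 and 24 in 3.

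Whole ovaries were dissected from 0- to 1-day-old females raised at 18 °C, and rRNA-depleted total RNA was sequenced in 8 libraries of 4 groups, with 2 biological replicates each. All groups carried UAS-Dcr-2 and the w[1118] allele over a wild-type X chromosome, together with the nos-GAL4 driver, which is active in germ cells, so that somatic cells of the ovary were not targeted. By the labels, double-GKD (germline knockdown) females carried UAS-Piwi-RNAi and UAS-HP1a-RNAi, and Piwi-GKD females UAS-Piwi-RNAi with the third chromosome balancer TM3. HP1a-GKD females were labelled with UAS-HP1a-RNAi and the second chromosome balancer CyO (Cy in the labels). Ctrl females carried both balancers and no RNAi construct. The 4 genotypes were siblings of 1 cross, and the ovaries of many females were pooled in each library.

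Piwi is a nuclear Argonaute protein that is guided by piRNAs to nascent transposon transcripts and brings about the deposition of H3K9 methylation there. HP1a binds methylated H3K9 and compacts chromatin in pericentromeric and telomeric regions and at many euchromatic sites. Germ cells keep many genes of other tissues, including genes of the male germline, transcriptionally silent.

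The mRNA levels of the targeted genes did not match the single knockdown labels. The mRNA of piwi was at 158.0 and 147.0 TPM in double-GKD, at 259 and 229 TPM in Piwi-GKD-labelled libraries, at 129 and 134 TPM in HP1a-GKD-labelled libraries and at 318 and 276 TPM in Ctrl. HP1a mRNA was at 161 and 172 TPM in double-GKD, at 166 and 189 TPM in Piwi-GKD-labelled libraries, at 342 and 358 TPM in HP1a-GKD-labelled libraries and at 327 and 328 TPM in Ctrl. The Piwi-GKD-labelled libraries thus had the lower HP1a mRNA and HP1a-GKD-labelled libraries the lower piwi, and the names of the deposited tables also give the opposite genotype. Both checks thus point to an exchange of the 2 single knockdown labels. The constructs and balancers given above for the single knockdowns would then be exchanged too. In that case the 4 knockdown libraries that chose the genes all carried UAS-HP1a-RNAi without TM3, while HP1a-GKD-labelled and Ctrl libraries carried TM3. The part of this difference in the third chromosome in the levels of the 23 genes was not tested. The labels are kept below as names of the libraries, and a direction given for Piwi-GKD-labelled libraries is that of libraries with lower HP1a mRNA.

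Sequencing depth was between 10773406 and 12802084 estimated reads per library. Germline markers summed to 393 to 400 TPM in double-GKD, 360 to 402 TPM in Piwi-GKD-labelled libraries, 1492 to 1496 TPM in HP1a-GKD-labelled libraries and 1706 to 1780 TPM in Ctrl (8 genes, among them osk, exu and aub). The summed level of these germline markers was thus lower in the 4 libraries in which the 23 genes were present. Single germline markers lay between 0.0999 (bam) and 0.473 (zpg) times Ctrl in double-GKD. In Piwi-GKD-labelled libraries they lay between 0.103 (exu) and 0.464 (aub) times Ctrl. Muscle markers summed to 8919 to 10861 TPM in double-GKD, 9703 to 12268 TPM in Piwi-GKD-labelled libraries, 3021 to 3472 TPM in HP1a-GKD-labelled libraries and 2705 to 2847 TPM in Ctrl (9 genes). Fat body markers summed to 461 to 544 TPM in double-GKD, 549 to 873 TPM in Piwi-GKD-labelled libraries, 116 to 141 TPM in HP1a-GKD-labelled libraries and 81.0 to 103 TPM in Ctrl (6 genes). A change in the number of cells of a type, in RNA per cell or in the expression of the marker genes themselves cannot be told apart in bulk ovaries.

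The median of all genes lay between 7.54 and 9.52 TPM in the 4 libraries of the rule, and some of the 23 genes were above it. CG4438 (FBgn0032115, 2L) was at 25.7 and 28.1 TPM in double-GKD and 13.5 and 14.6 TPM in Piwi-GKD-labelled libraries, against 0 and 0 TPM in HP1a-GKD-labelled libraries and 0 and 0 TPM in Ctrl. No read was assigned to it in any of these last 4 libraries, while the others held between 82 and 211 reads. Its mean TPM was at least 74.4-fold higher in double-GKD and at least 38.9-fold higher in Piwi-GKD-labelled libraries than in Ctrl, where the bound sets Ctrl at 3 reads per library. CG4438 overlaps Shawl, a potassium channel gene, which stayed at or below 0.267 TPM in all 8 libraries.

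CG12477 (FBgn0036809, 3L) was at 6.77 and 8.44 TPM in double-GKD and at 35.1 and 38.8 TPM in Piwi-GKD-labelled libraries, against 0.418 and 0.724 TPM in HP1a-GKD-labelled libraries and 0.445 and 0.195 TPM in Ctrl. Its levels in Piwi-GKD-labelled libraries were the highest of any of the 23 genes in any of the 8 libraries. FBgn0035860, for which no symbol was found, was at 10.3 and 9.83 TPM in double-GKD and at 26.4 and 28.1 TPM in Piwi-GKD-labelled libraries, against 0.283 and 0.688 TPM in HP1a-GKD-labelled libraries and 0.201 and 0.177 TPM in Ctrl. CG15599 (FBgn0030667, X) was at 4.06 and 2.71 TPM in double-GKD and at 23.03 and 15.6 TPM in Piwi-GKD-labelled libraries, against 0.110 and 0.143 TPM in HP1a-GKD-labelled libraries and 0.175 and 0.0258 TPM in Ctrl. All 3 were higher in each Piwi-GKD-labelled library than in each double-GKD library. CG3251 (FBgn0031622, 2L) was at 5.75 and 5.99 TPM in double-GKD and at 11.7 and 11.96 TPM in Piwi-GKD-labelled libraries, against 0.156 and 0.0541 TPM in HP1a-GKD-labelled libraries and 0.388 and 0 TPM in Ctrl.

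**Figure D1:**
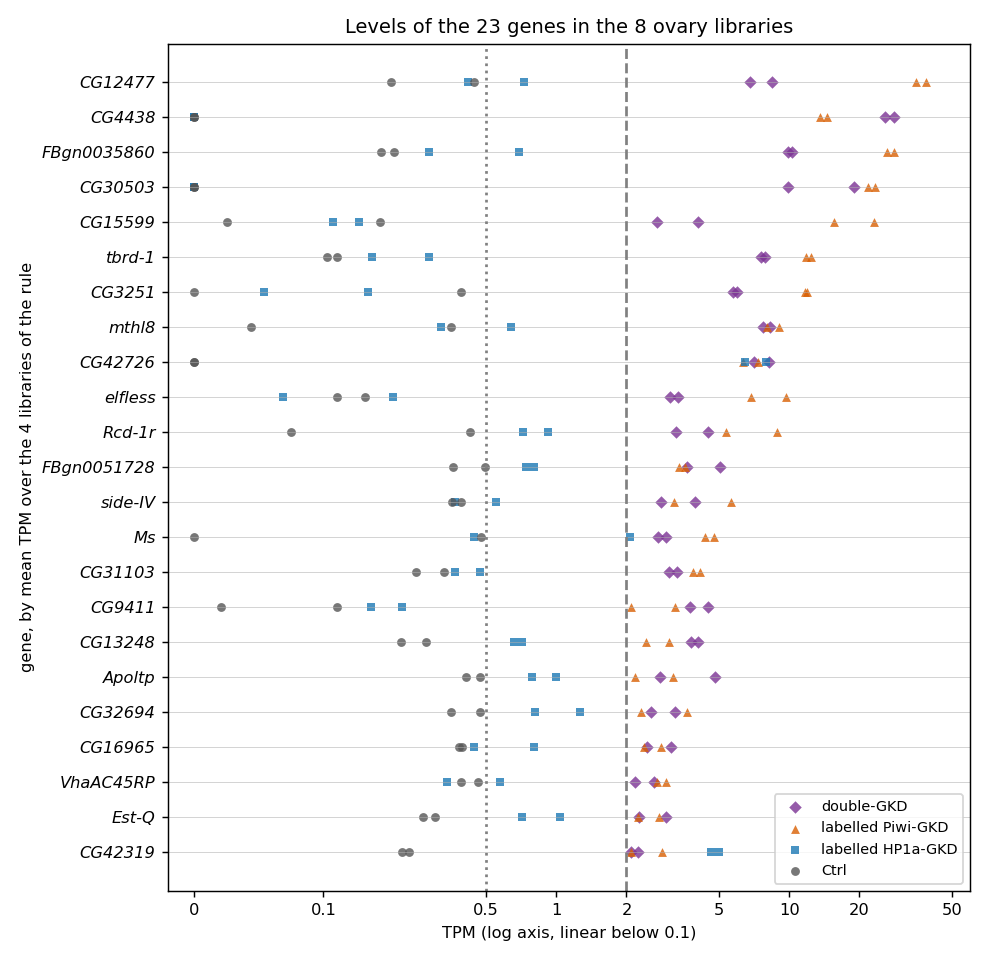
TPM of each of the 23 genes (rows, ordered by mean over the 4 libraries of the rule) in each of the 8 libraries, on a log axis that is linear below 0.1. Diamonds are double-GKD, triangles Piwi-GKD-labelled libraries, squares HP1a-GKD-labelled libraries and circles Ctrl, with the thresholds of 0.5 TPM (dotted) and 2 TPM (dashed). The diamonds and triangles lie above 2 TPM and the circles below 0.5 TPM by the choice of the genes, and the squares of CG42726 and CG42319 are the only pairs above 2 TPM.

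Of the 23 genes, tbrd-1 and elfless are known from testis, and they are described together for that role and not from a list. The gene tbrd-1 (FBgn0039124, 3R) encodes a bromodomain protein of spermatocytes. It was at 7.58 and 7.87 TPM in double-GKD and 12.4 and 11.8 TPM in Piwi-GKD-labelled libraries, against 0.161 and 0.284 TPM in HP1a-GKD-labelled libraries and 0.114 and 0.104 TPM in Ctrl. Its mean TPM was 70.9-fold higher in double-GKD (95% interval from the Ctrl read count alone 27.8 to 257) and 111-fold higher in Piwi-GKD-labelled libraries (43.7 to 403) than in Ctrl. The related genes tbrd-2 and tbrd-3 stayed near zero, at or below 0.0716 TPM and 0.582 TPM in all 8 libraries.

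The gene elfless (FBgn0032660, 2L) encodes a RING finger protein expressed in testis. It was at 3.07 and 3.33 TPM in double-GKD and 9.67 and 6.87 TPM in Piwi-GKD-labelled libraries, against 0.198 and 0.0689 TPM in HP1a-GKD-labelled libraries and 0.114 and 0.151 TPM in Ctrl. Rcd-1r (FBgn0032089, 2L) is a relative of Rcd-1, which encodes a subunit of the CCR4-NOT deadenylase complex. Rcd-1r was at 4.46 and 3.26 TPM in double-GKD and 8.89 and 5.35 TPM in Piwi-GKD-labelled libraries, against 0.719 and 0.917 TPM in HP1a-GKD-labelled libraries and 0.426 and 0.0749 TPM in Ctrl. Rcd-1 itself was between 63.4 and 97.9 TPM in all 8 libraries.

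None of the 23 genes was in the list of 12 testis markers, most of which stayed low. Of these, sa, nht, Mst84Da and Mst87F were at 0 reads in both Ctrl libraries and Mst84Da was at 0 also in both double-GKD libraries and both Piwi-GKD-labelled libraries. The 12 markers summed to 15.01 to 16.2 TPM in double-GKD, 16.0 to 22.4 TPM in Piwi-GKD-labelled libraries, 15.6 to 19.1 TPM in HP1a-GKD-labelled libraries and 13.9 to 16.8 TPM in Ctrl, or 1.01 times the Ctrl sum in double-GKD and 1.25 times in Piwi-GKD-labelled libraries. Of the 3 that could be tested, mia and topi rose in Piwi-GKD-labelled libraries and Phf7 fell in double-GKD against Ctrl, by edgeR's quasi-likelihood test with Benjamini-Hochberg adjustment over all genes at a threshold of 0.05. Most of each sum came from Phf7, a chromatin reader of the male germline, which was between 9.34 and 15.1 TPM in every group.

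The genes mthl8, Ms and side-IV encode a receptor, a peptide and a surface protein. The gene mthl8 (FBgn0052475, 3L) belongs to the methuselah-like family of G protein-coupled receptors. It was at 8.26 and 7.72 TPM in double-GKD and at 9.04 and 8.02 TPM in Piwi-GKD-labelled libraries, against 0.636 and 0.319 TPM in HP1a-GKD-labelled libraries and 0.352 and 0.0443 TPM in Ctrl. Its mean TPM was 40.3-fold higher in double-GKD and 43.1-fold higher in Piwi-GKD-labelled libraries than in Ctrl. Of the 15 mthl genes in the tables, 6 were silent in Ctrl and mthl8 alone met the rule.

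Of the other 14 mthl genes, 9 could be tested by the same test. In double-GKD 5 rose and 1, mthl5, fell against Ctrl, and in Piwi-GKD-labelled libraries 6 rose and mthl5 fell. The largest change was that of mthl2, which was at 12.6 and 9.63 TPM in double-GKD and at 18.0 and 15.9 TPM in Piwi-GKD-labelled libraries, against 1.04 and 1.52 TPM in HP1a-GKD-labelled libraries and 1.38 and 1.22 TPM in Ctrl. Its log2 fold change was 2.77 in double-GKD (adjusted p = 3.8e-05) and 3.30 in Piwi-GKD-labelled libraries (adjusted p = 1.9e-05). Over all 9346 genes tested 28.1% rose in double-GKD and 29.3% in Piwi-GKD-labelled libraries.

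Ms (FBgn0011581, 3R) encodes the neuropeptide Myosuppressin, which inhibits visceral muscle contraction. Ms was at 2.95 and 2.73 TPM in double-GKD and at 4.35 and 4.75 TPM in Piwi-GKD-labelled libraries, against 0.443 and 2.08 TPM in HP1a-GKD-labelled libraries and 0.473 and 0 TPM in Ctrl. It had the fewest reads of the 23 genes, 20 in its lowest library of the rule, and the 2 HP1a-GKD-labelled libraries differed widely. Its receptor MsR1 was at 7.53 and 6.09 TPM in double-GKD and at 10.2 and 10.003 TPM in Piwi-GKD-labelled libraries, against 1.95 and 1.73 TPM in HP1a-GKD-labelled libraries and 2.08 and 1.36 TPM in Ctrl. A second receptor gene, MsR2, was at 4.61 and 3.68 TPM in double-GKD and at 5.55 and 4.93 TPM in Piwi-GKD-labelled libraries, against 0.670 and 0.557 TPM in HP1a-GKD-labelled libraries and 0.680 and 0.391 TPM in Ctrl. The order of Ms was set by the rule and both receptors were chosen after values were seen, and 28.1% of all genes tested rose in double-GKD and 29.3% in Piwi-GKD-labelled libraries, so nothing is read from the shared order.

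The gene side-IV (FBgn0038156, 3R) encodes an immunoglobulin superfamily protein of the Sidestep family, which act as cell surface ligands of neurons and muscles. It was at 3.94 and 2.82 TPM in double-GKD and at 5.63 and 3.21 TPM in Piwi-GKD-labelled libraries, against 0.551 and 0.366 TPM in HP1a-GKD-labelled libraries and 0.358 and 0.391 TPM in Ctrl. The related side-V and side-VIII, which were not silent in Ctrl, were also higher in these 4 libraries than in the other 4. The gene side-V was at 17.2 and 11.3 TPM in double-GKD and at 18.0 and 12.5 TPM in Piwi-GKD-labelled libraries, against 2.63 and 3.09 TPM in HP1a-GKD-labelled libraries and 3.34 and 2.09 TPM in Ctrl. The gene side-VIII was at 4.70 and 3.09 TPM in double-GKD and at 4.30 and 2.91 TPM in Piwi-GKD-labelled libraries, against 1.498 and 1.476 TPM in HP1a-GKD-labelled libraries and 1.11 and 1.06 TPM in Ctrl. The same order held for side and side-VII. The gene side-III was highest in HP1a-GKD-labelled libraries, at 1.14 and 2.41 TPM. It was at 0.340 to 0.883 TPM in the 4 libraries of the rule and at most 0.0959 TPM in Ctrl. The gene side-VI did not rise, at 0.0928 to 0.272 TPM in those 4 and 0.148 to 0.256 TPM in the other 4 libraries. The gene side-II stayed at or below 0.0877 TPM in all 8 libraries. The relatives were chosen after values were seen, and 28.1% of all genes tested rose in double-GKD and 29.3% in Piwi-GKD-labelled libraries. Neuronal markers summed to 32.7 to 37.4 TPM in double-GKD, 32.6 to 47.8 TPM in Piwi-GKD-labelled libraries, 20.8 to 20.8 TPM in HP1a-GKD-labelled libraries and 15.7 to 18.0 TPM in Ctrl (7 genes). The part of neuronal RNA in the levels of Ms and side-IV was not tested.

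Apoltp, CG13248, VhaAC45RP and Est-Q encode proteins of transport and metabolism. Apoltp (FBgn0032136, 2L) encodes the apolipoprotein of the lipid transfer particle, which is made in fat body. It was at 4.81 and 2.78 TPM in double-GKD and at 3.17 and 2.17 TPM in Piwi-GKD-labelled libraries, against 0.998 and 0.786 TPM in HP1a-GKD-labelled libraries and 0.469 and 0.408 TPM in Ctrl. With 13308 bases it was the longest of the 23 genes and had 329 to 632 reads in the 4 libraries. Its mean TPM was 8.66-fold higher in double-GKD and 6.09-fold higher in Piwi-GKD-labelled libraries than in Ctrl. The fat body marker apolpp, the main lipoprotein precursor, was 6.30-fold higher in double-GKD and 8.99-fold higher in Piwi-GKD-labelled libraries than in Ctrl, and the part of fat body RNA in the level of Apoltp was not tested.

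CG13248 (FBgn0036984, 3L), of the cationic amino acid transporter family, was at 4.04 and 3.77 TPM in double-GKD and at 3.04 and 2.42 TPM in Piwi-GKD-labelled libraries, against 0.715 and 0.656 TPM in HP1a-GKD-labelled libraries and 0.274 and 0.215 TPM in Ctrl. VhaAC45RP (FBgn0051030, 3R), a relative of the AC45 accessory subunit of the vacuolar proton pump, was at 2.64 and 2.18 TPM in double-GKD and at 2.96 and 2.71 TPM in Piwi-GKD-labelled libraries, against 0.572 and 0.338 TPM in HP1a-GKD-labelled libraries and 0.462 and 0.391 TPM in Ctrl. VhaAC45 itself was between 109 and 196 TPM in all libraries. Est-Q (FBgn0037090, 3L), an esterase gene, was at 2.97 and 2.27 TPM in double-GKD and at 2.75 and 2.24 TPM in Piwi-GKD-labelled libraries, against 0.709 and 1.03 TPM in HP1a-GKD-labelled libraries and 0.302 and 0.266 TPM in Ctrl. Est-Q overlaps Glg1, which was between 36.5 and 65.8 TPM, and CG16965 overlaps CG6686, which was between 41.3 and 59.8 TPM. Against Ctrl, the log2 fold change of Glg1 was 0.31 in double-GKD and 0.19 in Piwi-GKD-labelled libraries. That of CG6686 was -0.67 in both groups. The strand setting of the counting is not given in the sources used here. The part of reads from the more abundant partners in the levels of Est-Q and CG16965 was not tested.

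The remaining genes have no role that is stated here. CG9411 (FBgn0030569, X) was at 4.49 and 3.75 TPM in double-GKD and at 3.24 and 2.08 TPM in Piwi-GKD-labelled libraries, against 0.217 and 0.160 TPM in HP1a-GKD-labelled libraries and 0.114 and 0.0207 TPM in Ctrl. CG31103, CG32694, CG16965 and FBgn0051728 lay between 2.31 and 5.05 TPM in the 4 libraries of the rule, and between 0.251 and 0.492 TPM in Ctrl. In all, 10 of the 23 genes were under 5 TPM in every library and 5 reached 20 TPM in at least 1.

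For 2 of the 23 genes, reads were assigned in some libraries to that gene and in others to a partner with the same start and end in the Release 6 gene table, so that a change of the gene cannot be told apart from this assignment. CG42726 (FBgn0261679, 3R) was at 8.22 and 7.07 TPM in double-GKD, at 7.33 and 6.36 TPM in Piwi-GKD-labelled libraries and at 7.91 and 6.44 TPM in HP1a-GKD-labelled libraries, against 0 and 0 TPM in Ctrl. Its partner CG42727 was at 0 TPM in all 6 knockdown libraries and at 7.85 and 6.81 TPM in Ctrl. The reads of the pair summed to 168 and 189 in double-GKD, 158.0 and 150.0 in Piwi-GKD-labelled libraries, 216 and 169 in HP1a-GKD-labelled libraries and 201 and 198 in Ctrl. On the summed reads, the log2 fold change against Ctrl was -0.27 in double-GKD (SE 0.15, adjusted p = 0.17), -0.50 in Piwi-GKD-labelled libraries (SE 0.15, adjusted p = 0.025) and -0.08 in HP1a-GKD-labelled libraries (SE 0.15, adjusted p = 0.91).

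CG30503 (FBgn0050503, 2R), a predicted secretory phospholipase A2 gene, was at 19.0 and 9.89 TPM in double-GKD and at 23.3 and 21.7 TPM in Piwi-GKD-labelled libraries, against 0 and 0 TPM in HP1a-GKD-labelled libraries and 0 and 0 TPM in Ctrl. Its partner kappaB-Ras, which encodes a small GTPase-like inhibitor of NF-kappaB signalling, was at 4.66 and 15.4 TPM in double-GKD and at 5.59 and 3.99 TPM in Piwi-GKD-labelled libraries, against 13.6 and 14.1 TPM in HP1a-GKD-labelled libraries and 16.5 and 14.8 TPM in Ctrl. The summed reads of the pair differed from Ctrl by a log2 fold change of -0.03 in double-GKD (SE 0.11) and 0.12 in Piwi-GKD-labelled libraries (SE 0.11). When TPM and reads were summed over genes that share a span, a choice made after the values were seen, 21 genes met the rule and CG42726 and CG30503 did not.

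**Figure D2:**
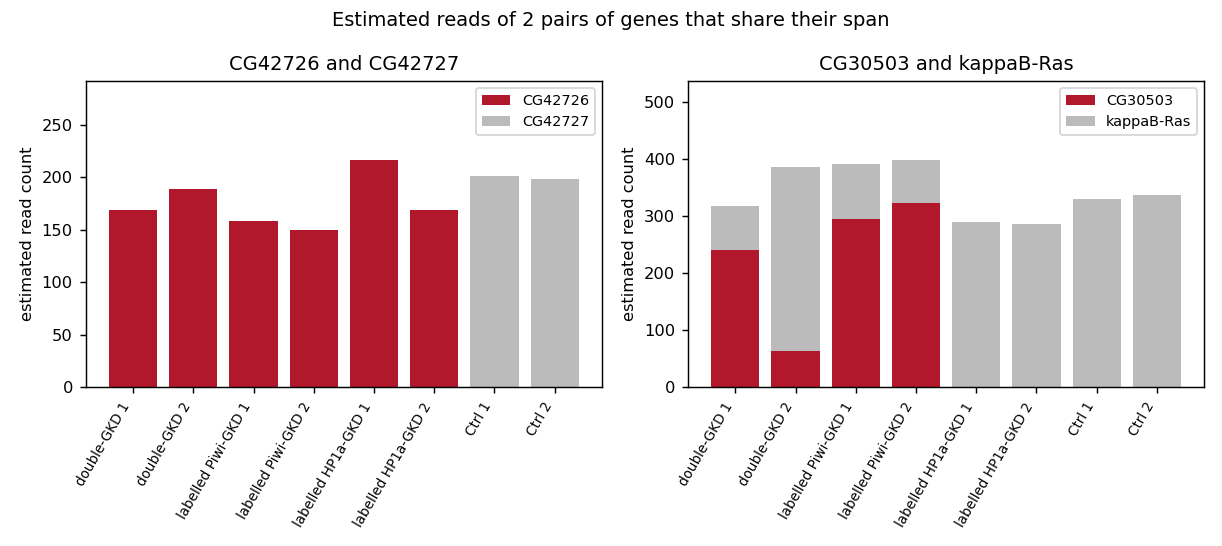
Estimated reads of CG42726 and CG42727 (left) and of CG30503 and kappaB-Ras (right) in each library, stacked from 0, from double-GKD on the left to Ctrl on the right. The total of the left pair lies between 150.0 and 216 reads, and all of it is CG42727 in Ctrl and CG42726 in the other 6 libraries.

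The rule fixed that the 23 genes were higher in double-GKD and in Piwi-GKD-labelled libraries than in Ctrl, so these contrasts are given as a description with no test of the members. Against Ctrl, 28.1% of all 9346 genes tested rose in double-GKD and 47.6% of the 694 tested genes that were silent in Ctrl. In Piwi-GKD-labelled libraries these shares were 29.3% of all genes tested and 51% of the silent ones. The median log2 fold change was 3.66 in double-GKD for the 23 genes and 1.52 for the tested silent genes. In Piwi-GKD-labelled libraries it was 4.42 for the 23 genes and 1.61 for the tested silent genes. All 23 passed the filter on low counts through the groups in which they were high. The filter kept 694 of the 4874 silent genes. A silent gene passes it more easily when high in another group. The shares and medians of tested silent genes thus do not stand for all silent genes.

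The size of the folds ranged widely. In double-GKD the fold of mean TPM over Ctrl lay between 5.64 for VhaAC45RP and at least 74.4 for CG4438, with a median of 16.0. In Piwi-GKD-labelled libraries it lay between 6.09 for Apoltp and 192 for CG15599, with a median of 28.5. The 3 genes at 0 reads in Ctrl entered these medians at their lower bounds. With TPM scaled by the TMM factors the folds of the genes with reads in Ctrl were 0.844 to 0.885 times as large, and none was below 4.91.

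Of the 9 lists of markers of tissues other than the female germline, all but the gut list had a higher summed TPM in both groups of the rule than in Ctrl. The summed TPM of fat body markers was 5.47 times that of Ctrl in double-GKD and 7.74 times in Piwi-GKD-labelled libraries. For muscle markers the ratio was 3.56 in double-GKD and 3.96 in Piwi-GKD-labelled libraries, for hemocyte markers 3.49 in double-GKD and 3.85 in Piwi-GKD-labelled libraries, and for follicle cell markers 2.58 in double-GKD and 2.12 in Piwi-GKD-labelled libraries. For neuronal markers it was 2.08 in double-GKD and 2.39 in Piwi-GKD-labelled libraries, for tracheal and epidermal markers 2.85 in double-GKD and 3.62 in Piwi-GKD-labelled libraries, and for oviduct and spermatheca markers 1.799 in double-GKD and 1.95 in Piwi-GKD-labelled libraries. Gut markers were at 0.836 times the Ctrl sum in double-GKD and 0.917 times in Piwi-GKD-labelled libraries. The 2 Ctrl sums of the gut list were 4.70 and 13.5 TPM and differed mostly through Mal-A1. Mal-A1 was at 7.83 and 0.476 TPM in Ctrl, so no direction is read for gut. The testis list was near 1, as given above. Germline markers were at 0.228 times the Ctrl sum in double-GKD and 0.219 times in Piwi-GKD-labelled libraries. By edgeR's test against Ctrl, all tested fat body, muscle, hemocyte, and tracheal and epidermal markers rose in both groups. Of 8 follicle cell markers tested, 3 rose in double-GKD and 4 in Piwi-GKD-labelled libraries. Of 7 neuronal markers, 3 rose in each group and 1, cac, fell in double-GKD. Of 2 oviduct and spermatheca markers tested, 1, Oamb, rose in both groups. Among single markers with at least 3 reads over both Ctrl libraries, the largest fold was that of Fbp2, a fat body gene, at 8.76 in double-GKD and 10.9 in Piwi-GKD-labelled libraries. The hemocyte marker He, with fewer reads in Ctrl, was at 3.05 and 2.52 TPM in double-GKD and at 2.45 and 2.86 TPM in Piwi-GKD-labelled libraries, against 0 and 0.554 TPM in HP1a-GKD-labelled libraries and 0.376 and 0 TPM in Ctrl. The part of a changed tissue make-up in the levels of the 23 genes was not tested.

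**Figure D3:**
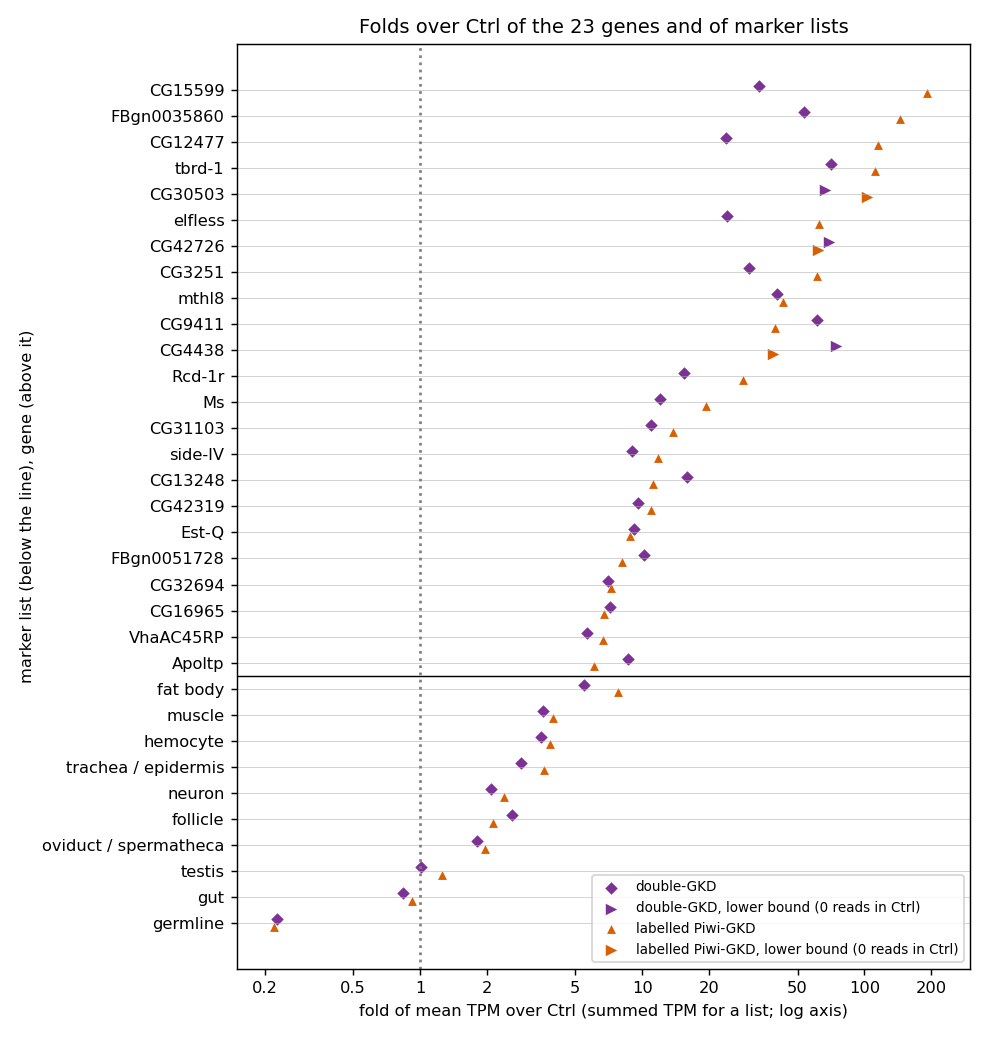
Fold of mean TPM over Ctrl in double-GKD (diamonds) and in Piwi-GKD-labelled libraries (triangles) on a log axis, for the 23 genes above the line and for the summed TPM of 10 marker lists below it. Arrowheads are lower bounds for genes at 0 reads in Ctrl, and the rule set the folds of the 23 genes high. The lists range from 0.219 for germline to 7.74 for fat body, and CG15599 is at 192 in Piwi-GKD-labelled libraries.

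The HP1a-GKD-labelled libraries were not used to choose the genes. In them, 8 of the 23 genes stayed under 0.5 TPM in both libraries, and CG42726 and CG42319 were at 2 TPM or more with 20 reads or more in both. Of the 4874 silent genes, 9 (0.185%) passed the same 2 limits in both. All 23 together summed to 22.3 and 22.8 TPM, against 6.36 and 4.25 TPM in Ctrl. Of the sums in HP1a-GKD-labelled libraries, 7.91 and 6.44 TPM came from CG42726, whose Ctrl reads were assigned to CG42727. A further 4.62 and 4.99 TPM came from CG42319. In 21 of the 23 genes, all 4 libraries of the rule were above both HP1a-GKD-labelled libraries, beside 18.9% of all silent genes. The rule, which set high levels in those 4 libraries, favoured this order. The exceptions were CG42726 and CG42319.

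Both HP1a-GKD-labelled libraries were above both Ctrl libraries for 13 of the 23 genes and below them for 0. Among the 4874 silent genes, of which 1783 had 0 reads in Ctrl, these shares were 12.8% and 8.66%. The Ctrl levels of the 23 genes had to be low by the choice of the genes, so this direction is not independent of it. By edgeR's quasi-likelihood test over all genes, 3 of the 23 genes rose in HP1a-GKD-labelled libraries and 0 fell, and at an unadjusted p under 0.05 the counts were 8 and 0. DESeq2 called 3 and 0, with Apoltp in place of CG13248. Over all genes tested 0.877% rose and 0.492% fell, and over the tested genes that were silent in Ctrl 2.59% rose and 0% fell. These silent genes are again only those that passed the filter. The median log2 fold change was 0.79 for the 23 genes, 0.38 for the tested silent genes and -0.0014 for all genes tested.

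CG42319 (FBgn0259219, 2R) differed from the other 22 genes in its order of groups. It was at 2.24 and 2.09 TPM in double-GKD, at 2.85 and 2.08 TPM in Piwi-GKD-labelled libraries and at 4.62 and 4.99 TPM in HP1a-GKD-labelled libraries, against 0.218 and 0.234 TPM in Ctrl. Its level was thus highest in both HP1a-GKD-labelled libraries, in which piwi mRNA was lowest. The log2 fold change in these libraries against Ctrl was 3.84 (SE 0.30, adjusted p = 0.0019).

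CG13248 rose by a log2 fold change of 1.43 in HP1a-GKD-labelled libraries against Ctrl (SE 0.22, adjusted p = 0.027), although its level of 0.715 and 0.656 TPM there remained low. This call was lost without any 1 of the 8 libraries, with an adjusted p of up to 0.22, and in DESeq2 (adjusted p = 0.17). The third call was CG42726, which had 0 reads in Ctrl and whose reads, as given above, were assigned to CG42727 there. No fold between HP1a-GKD-labelled libraries and Ctrl can be given for CG4438 and CG30503, which had 0 reads in both groups. Of the genes with a known role, Est-Q had a log2 fold change of 1.54 (SE 0.31, adjusted p = 0.080) and Apoltp of 0.98 (SE 0.26, adjusted p = 0.17), which was called in DESeq2 (adjusted p = 0.023) and with the replicate number as a block (adjusted p = 0.049). The log2 fold change of tbrd-1 was 0.94 (SE 0.39, adjusted p = 0.75) and that of mthl8 was 1.28 (SE 0.65, adjusted p = 0.55).

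**Figure D4:**
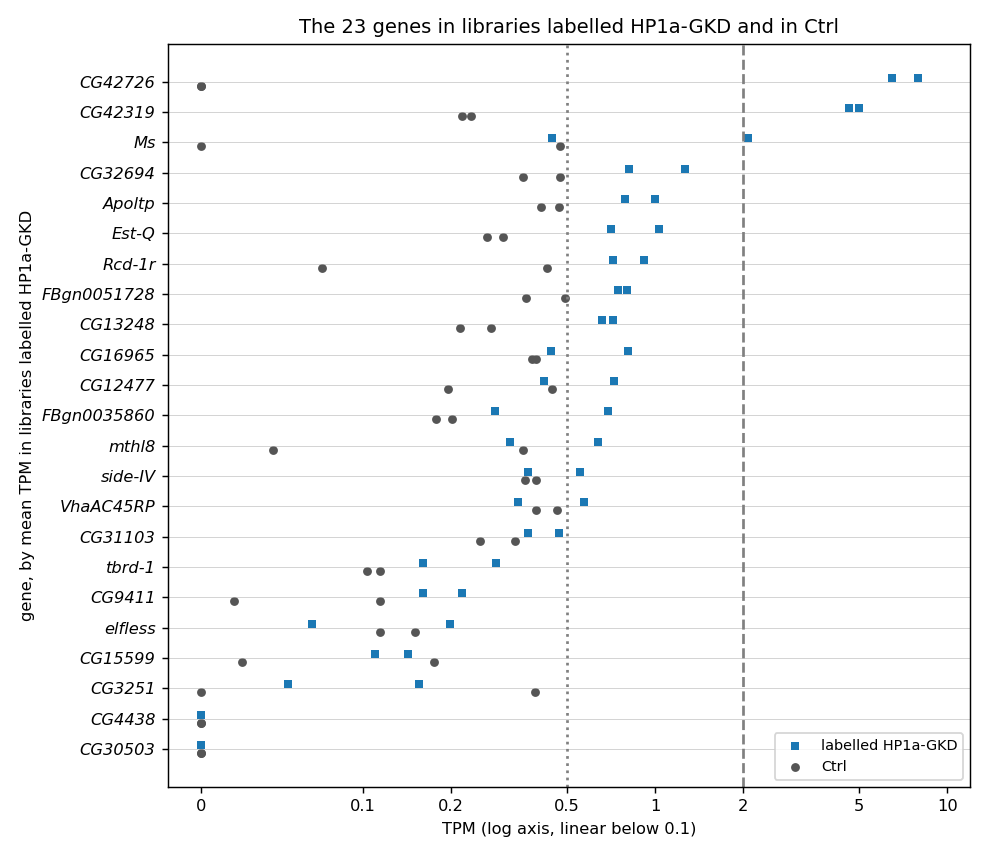
TPM of the 23 genes in the 2 HP1a-GKD-labelled libraries (squares) and in the 2 Ctrl libraries (circles), ordered by the mean in HP1a-GKD-labelled libraries, on a log axis that is linear below 0.1. CG42726 and CG42319 are above 2 TPM (dashed) in both HP1a-GKD-labelled libraries, and the other genes lie near or below 1 TPM except 1 library of Ms at 2.08 TPM and 1 of CG32694 at 1.27 TPM.

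Double-GKD was next compared with Piwi-GKD-labelled libraries, a difference that the rule did not use. Both double-GKD libraries were above both Piwi-GKD-labelled libraries for 4 of the 23 genes and below them for 11, beside 7.64% and 28.5% of all genes tested. By edgeR's test 0 genes rose and 2 fell, and at an unadjusted p under 0.05 the counts were 3 and 5. DESeq2 called 0 and 3. Over all genes tested 0.417% rose and 0.621% fell, and the median log2 fold change was -0.26 for the 23 genes and 0.0079 for all genes.

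CG15599 and CG12477 were the 2 genes that fell. CG15599, with the levels given above, had a log2 fold change of -2.43 in double-GKD against Piwi-GKD-labelled libraries (SE 0.34, adjusted p = 0.029). For CG12477 it was -2.20 (SE 0.28, adjusted p = 0.019). Both calls were lost when any 1 of the 4 libraries compared was left out, and that of CG15599 also without either of the HP1a-GKD-labelled libraries, with the same direction and an adjusted p of at most 0.13. FBgn0035860 had a log2 fold change of -1.36 (SE 0.25, adjusted p = 0.061) and elfless of -1.22 (SE 0.27, adjusted p = 0.12).

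In the other direction, CG4438 had a log2 fold change of 1.01 (SE 0.22, adjusted p = 0.17) and CG13248 of 0.60 (SE 0.17, adjusted p = 0.22), neither past the threshold. The gene mthl8 had a log2 fold change of -0.02 (SE 0.46, adjusted p = 1.00), an error that leaves room for a difference in either direction. The genes tbrd-1 and Rcd-1r had log2 fold changes of -0.57 (SE 0.19, adjusted p = 0.30) and -0.79 (SE 0.39, adjusted p = 0.50).

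**Figure D5:**
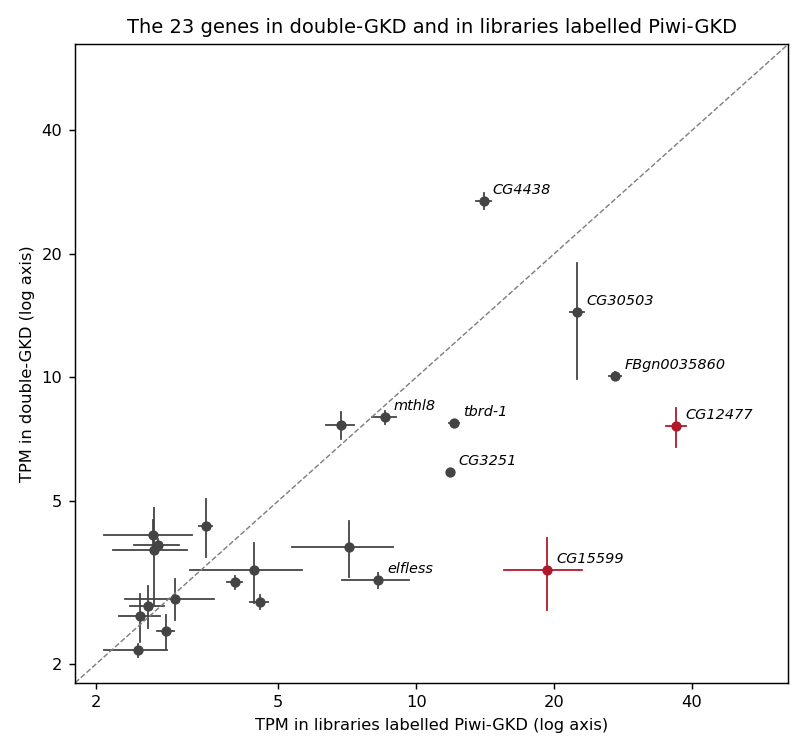
Mean TPM of the 23 genes in double-GKD (vertical) against Piwi-GKD-labelled libraries (horizontal), both on log axes, with bars from the lower to the higher of the 2 replicates and a dashed line of equal levels. CG15599 and CG12477 (red) lie below the line and passed the test, and CG4438 lies above it.

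The 23 genes were spread over all large chromosome arms. An arm was found for 21, all of them protein coding, and no 2 were neighbours in gene order. Arm 2L held 6 (28.6%, beside 21.0% of the silent genes with an arm), 3R held 6 (28.6%, beside 25.05%), 3L held 4 (19.0%, beside 20.8%), X held 3 (14.3%, beside 13.4%) and 2R held 2 (9.52%, beside 19.4%). Chromosomes 4 and Y held 0. In Release 6, mthl8 is the first protein coding gene in the tables on 3L, nearest to the end of that arm. The median length was 1682 bases over the 23 genes, 1210 bases over the silent genes and 1593 bases over all genes.

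The flanking genes were mostly low or not called higher. Of 41 flanking protein coding genes, 21 were under 0.5 mean TPM in Ctrl and 16 were too low to be tested. Of the 25 tested, 4 rose in double-GKD (16.0%) and 7 rose in Piwi-GKD-labelled libraries (28.0%), beside the 28.1% and 29.3% of all genes tested. The neighbours that rose in Piwi-GKD-labelled libraries included Elba3 beside CG3251, at 0.519 mean TPM in double-GKD and 1.93 in Piwi-GKD-labelled libraries, and CG10799 beside CG42319, at 4.90 mean TPM in double-GKD and 6.62 in Piwi-GKD-labelled libraries. Neither was called in double-GKD, whereas M6 beside Est-Q, rdo beside elfless and dpr8 beside CG9411 rose in both groups. Of the 25 tested, 7 fell in double-GKD and 9 fell in Piwi-GKD-labelled libraries. The neighbours of tbrd-1, TfIIA-S and sba, were not called in Piwi-GKD-labelled libraries. Of 34 gene families sorted by symbol, with 900 genes of which 613 were silent in Ctrl, only the mthl family held any of the 23 genes.

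The thresholds cut through a continuous range of levels. Just inside the Ctrl limit were FBgn0051728 at 0.492 TPM, Ms at 0.473 TPM and CG32694 at 0.471 TPM in the higher Ctrl library. Just outside it were CG8046 at 0.518 TPM, CG10019 at 0.520 TPM and the serotonin receptor gene 5-HT7 at 0.521 TPM. The lowest of the 4 libraries of the rule was at 2.08 TPM for CG9411 and CG42319 and 2.17 TPM for Apoltp, against 1.96 TPM for CG31100, 1.92 TPM for CG17027 and 1.91 TPM for CG8468, which missed the limit. On reads, Ms had 20, CG42319 28.0 and CG32694 29.2, while Trf5 with 19.0, CG11841 with 17.0 and CG32706 with 16.0 missed it. The reverse conditions, under 0.5 TPM in the 4 knockdown libraries and at least 2 TPM with 20 reads in both Ctrl libraries, were met by 6 genes. Among them was CG42727, the partner of CG42726. This count cannot be set against that of the rule, because the reverse conditions ask for silence in more libraries and presence in fewer.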

How the data were processed

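RNA was measured in 8 ovary libraries, 2 per group. After rRNA depletion and single-end sequencing, the authors mapped reads with STAR against dm3 (BDGP5) and used Salmon to quantify genes. The deposited tables hold what Salmon gave per gene, an estimated count (reads shared among transcripts by likelihood, so not always whole) and a TPM value scaled by length and library total. The strand setting and tool versions are not given in the sources used here. The deposited insertion table of double-GKD DNA, whose insertion frequency is a fraction, was not analysed here because no gene positions of its genome build were used.

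The members were read from TPM and counts by the rule. The members and gene lists were chosen with earlier results of these data known. Estimated counts were rounded and fitted with edgeR 4.0.16 (R 4.3.3, TMM factors, filterByExpr, quasi-likelihood test, 1 model over all 8 libraries, Benjamini-Hochberg adjustment, calls at adjusted p under 0.05). DESeq2 1.42.0 was an alternative. P-values rest on 2 libraries of pooled ovaries per group. For contrasts used by the rule, no call of a member is reported. The fit was checked on simulated counts.

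Genes named are piwi and the HP1a gene, the 15 members with the highest mean TPM over the 4 libraries of the rule, the 10 highest and those at 0 reads in HP1a-GKD-labelled libraries, members called in a tested contrast, members in a gene family or marker list, and the 3 genes on either side of each threshold. VhaAC45RP and the genes related by name, neighbouring or overlapping were chosen after values were seen. Symbols were found for 13389 of 13937 IDs and arms for 13376, from a Release 6 table that differs from the build of the files and gave names, arms and gene order only. Fold bounds put Ctrl at 3 reads per library. Intervals of folds (95%, exact Poisson on the Ctrl reads) cover counting error only.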

Additional observations from a re-analysis of the deposited data

Results flagged for a closer look

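The effect against Ctrl differed between double-GKD and Piwi-GKD-labelled libraries for 2 genes, by edgeR's test of the difference itself. For CG15599 the log2 fold change of double-GKD over Piwi-GKD-labelled libraries was -2.43 (lower in 2 of 2 double-GKD libraries, adjusted p = 0.029). For CG12477 it was -2.20 (lower in 2 of 2 double-GKD libraries, adjusted p = 0.019). Over all genes tested 0.621% were called down, and 28.5% had both double-GKD libraries below both Piwi-GKD-labelled libraries. Over the alternatives tried, which include DESeq2, the adjusted p lay between 1.1e-14 and 0.13 for CG15599 and between 1.1e-10 and 0.13 for CG12477.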

How the results depend on the processing

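The number of genes that met the rule was 23, and it followed the thresholds: 9 with Ctrl under 0.25 TPM, 109 with Ctrl under 1 TPM, 86 with at least 1 TPM and 8 with at least 4 TPM in the 4 knockdown libraries, 30 with 10 reads, 19 with 40 reads and 18 with TMM-scaled TPM. Leaving out 1 library gave 24 to 51 genes, with 51 without Ctrl replicate 1 and 44 without Ctrl replicate 2. Each library left out removes a condition of the rule, so these counts could not fall. Of the genes called in HP1a-GKD-labelled libraries, CG42319 and CG42726 passed in all 13 alternatives and CG13248 in 3 of 13. Leaving out any 1 library gave 2 calls up and 0 down there. The fit on the 4 libraries of that comparison gave 2 calls up, but its filter kept 10 of the 23 genes. None of the 13 alternatives summed the reads of CG42726 and CG42727, so they do not bear on the read assignment behind the call of CG42726. On the summed reads, the log2 fold change in HP1a-GKD-labelled libraries against Ctrl was -0.08 (edgeR, adjusted p = 0.91). In double-GKD against Piwi-GKD-labelled libraries, the calls down numbered 0 to 2 when 1 library was left out, with 0 without either double-GKD library or either Piwi-GKD-labelled library, and CG12477 passed in 9 and CG15599 in 7 of 13 alternatives. FBgn0035860 was also called down without either HP1a-GKD-labelled library, in DESeq2 and with the replicate block. No alternative called a gene up there. With the replicate number as a block the counts were 4 up in HP1a-GKD-labelled libraries, with Apoltp gained, and 3 down in double-GKD against Piwi-GKD-labelled libraries. The main fit left the block out, although same-numbered libraries correlated at over 0.1 in 4 of 6 pairs of groups, between -0.04 and 0.23. No direction reversed. Genes with few Ctrl reads, such as Ms, limit the precision of folds.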
